A study of Gallus gallus with 30 samples.

Results

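The transcripts described here ranked highest by a rule on mean values in the chicken otocyst, the epithelial vesicle from which the inner ear develops. The rule asked for a mean rise with raised Notch activity and a mean fall with blocked Notch activity. The transcripts so picked number 100 of the 28756 listed. They were chosen by their measured values. For each embryo, r was the log2 ratio of the treated right otocyst to the control left otocyst, computed as (right TPM + 1) over (left TPM + 1), where TPM is the abundance of a transcript scaled for its length and for the size of the library. A transcript was eligible with a mean of at least 5 TPM over the 24 libraries of the gain and loss experiments, which left 12033. Of these, 2502 had a mean r above 0 over the 6 embryos with raised Notch activity and below 0 over the 6 embryos with blocked Notch activity. The 100 with the largest score, the first mean minus the second, are the members.

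Each library came from 1 otocyst of 1 of 15 White Leghorn embryos, and all treated otocysts were right ones, so that side and treatment cannot be told apart. For gain of function, the right otic placode was electroporated in ovo at embryonic day 2 with pCAB-NICD1-IRES-mRFP1, which expresses the intracellular domain of NOTCH1 and a red fluorescent protein. These otocysts were collected 6 h later at embryonic day 2.5 (3 embryos) or 24 h later at embryonic day 3 (3 embryos). The control electroporation used pCAB-IRES-mRFP1 without NICD1 and was collected at 24 h (3 embryos). In these 9 embryos the left otocyst was untransfected. For loss of function, both otocysts were explanted at embryonic day 2.5 and cultured for 6 h (3 embryos) or 24 h (3 embryos), the right with 10 µM LY411575 and the left with its solvent DMSO. Only strongly fluorescent transfected otocysts were kept by the study, and transfection is mosaic, so each NICD1 library also holds RNA of cells without the plasmid. In 4 of the 6 LY411575 samples the label ends in another digit, while the protocol names LY411575 alone.

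Notch is a receptor that reads ligands of the Delta and Jagged families on neighbouring cells. On binding, γ-secretase cuts the receptor and its intracellular domain enters the nucleus, where it acts with RBPJ on target genes such as those of the HES and HEY families of transcriptional repressors. LY411575 inhibits γ-secretase. In the otic epithelium Notch signalling is known for holding back neuronal differentiation through lateral inhibition and for a role in the specification of prosensory patches.

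The libraries held between 8749488 and 18224622 estimated counts. SOX10, a transcription factor of the otic epithelium, was at 54.1 TPM or more in every library. Sums over marker lists moved with the culture and in part with the treatments. For 10 otic epithelium transcripts the sum was between 1030 and 1215 TPM in DMSO at 6 h and between 300 and 440 TPM in DMSO at 24 h. With LY411575 it was between 1020 and 1200 TPM at 6 h and between 257 and 372 TPM at 24 h. The median log2 fold change over the 10 with LY411575 was -0.48 at 6 h and -0.50 at 24 h. In NICD1 otocysts at 6 h the sum was between 822 and 1061 TPM, below the 1070 to 1210 TPM of their left otocysts. At 24 h of NICD1 the sides overlapped, at 542 to 1146 TPM on the right and 856 to 1140 TPM on the left. For 16 neurogenesis transcripts of 11 genes, STMN1 several times among them, the sum was between 6075 and 6870 TPM in DMSO at 6 h. It was between 13312 and 15983 TPM in DMSO at 24 h and between 17942 and 24754 TPM with LY411575 at 24 h. The median log2 fold change over the 16 with LY411575 at 24 h was 0.52, but not all of them rose. NEUROD1 was at 120 to 211 TPM with LY411575 at 24 h against 149 to 230 TPM in DMSO, and DLL1 was lower in 3 of 3 embryos. After 6 h of LY411575 the neurogenesis sum was between 6405 and 7563 TPM, and the median log2 fold change was 0.42. At that time NEUROD1 was at 212 to 271 TPM against 97.6 to 136 TPM in DMSO, and DLL1 was higher in 3 of 3 embryos. The otocysts had been cleaned of mesenchyme. For 6 mesenchyme transcripts, the member ACTA2 among them, the sum was between 272 and 575 TPM in NICD1 otocysts at 6 h. In their left otocysts it was between 215 and 247 TPM. At 24 h of NICD1 it was between 342 and 531 TPM against 423 to 585 TPM on the left. With mRFP1 it was between 250 and 821 TPM against 324 to 603 TPM on the left. With LY411575 at 6 h it was between 290 and 355 TPM against 263 to 341 TPM in DMSO. At 24 h of LY411575 it was between 147 and 213 TPM against 167 to 270 TPM in DMSO. The part of these shifts in the members' values was not tested. In whole otocysts, fewer cells of a type and less RNA per cell cannot be told apart.

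The members spread over a wide range of scores, and 3 of them stood clear of the rest. The scores ran from 5.72 to 1.01 with a median of 1.36. The 3 highest belonged to HES5.1 (score 5.72), HES5.3 (score 4.97) and HES5.2 (score 4.65), chicken genes for basic helix-loop-helix repressors of the HES family. The next was BZW2 with a score of 3.09, and 20 members had a score over 2. At the threshold there was no gap. The last 3 members had scores of 1.033, 1.020 and 1.009, and the next 3 transcripts had scores of 1.008, 1.003 and 1.001. Blocked Notch activity gave the larger part of the score in 63 members and NICD1 in 37. Symbols were at hand for 17 members, and the other 83 are known by transcript identifier only.

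**Figure D1:**
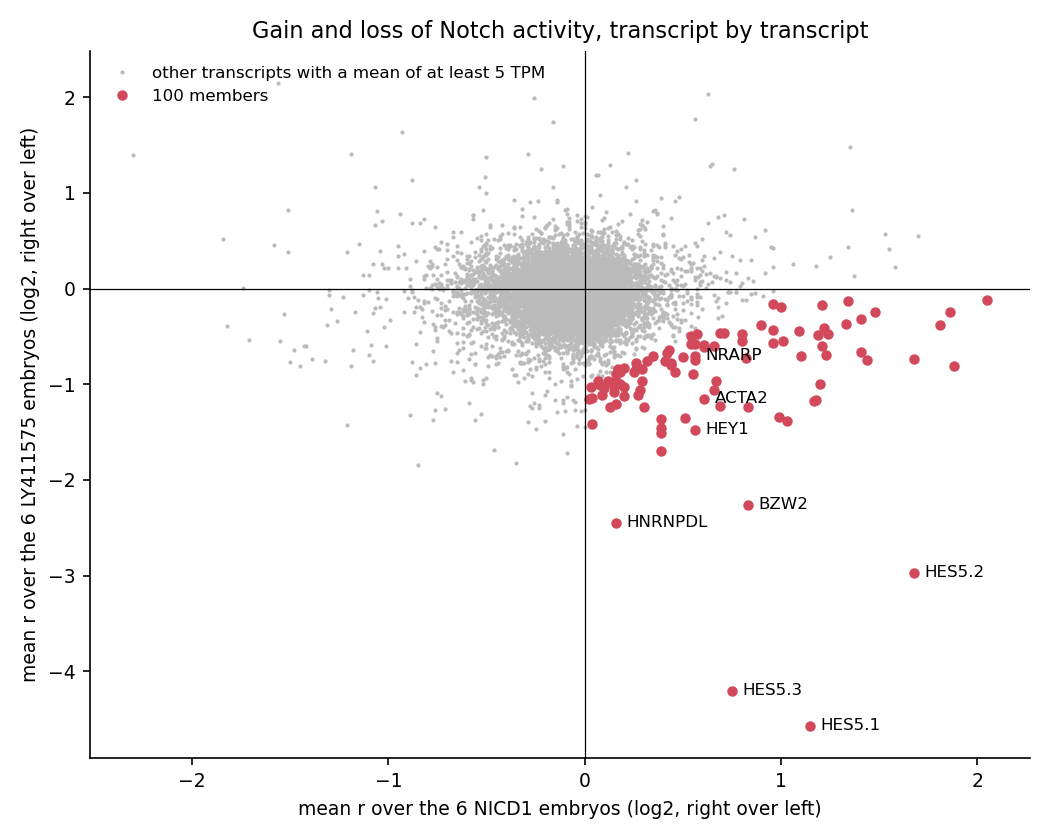
Mean r over the 6 NICD1 embryos (horizontal axis, log2) against mean r over the 6 LY411575 embryos (vertical axis, log2) for each of the 12033 transcripts with a mean of at least 5 TPM, with the 100 members in red. HES5.1, HES5.3 and HES5.2 have the lowest vertical positions, at -4.57, -4.21 and -2.97, and the rule itself places all members in the lower right quadrant.

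HES5.1 (ENSGALT00000001715.5) was the highest-scoring member and had the direction of the rule in 12 of 12 embryos. In DMSO it was at 104, 70.6 and 49.4 TPM after 6 h, and with LY411575 at 0.204, 0 and 0.0949 TPM. After 24 h it was at 13.7, 17.2 and 8.39 TPM in DMSO and at 0.883, 0.363 and 0.600 TPM with LY411575. The inhibitor thus left less than 1 TPM in each of the 6 otocysts, and the sides did not overlap at either time. After 6 h of NICD1 it was at 150, 54.6 and 81.5 TPM against 37.0, 43.5 and 66.7 TPM on the left. After 24 h of NICD1 it was at 51.0, 163 and 115 TPM against 20.6, 32.0 and 68.1 TPM. The left and right ranges overlapped at both times, and within each embryo the right was higher, with r between 0.29 and 2.31.

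HES5.3 (ENSGALT00000035200.5) was the most abundant of the 3 in the control otocysts of every embryo but 1. In DMSO at 6 h it was at 177, 161 and 115 TPM, and with LY411575 at 1.85, 2.37 and 2.89 TPM. At 24 h it was at 16.5, 24.7 and 8.24 TPM in DMSO and at 1.35, 1.25 and 0.730 TPM with LY411575. A small level thus remained after 6 h of inhibitor in all 3 otocysts. With NICD1 it was at 246, 129 and 127 TPM at 6 h against 95.6, 128 and 134 TPM on the left, so that only embryo 12 showed an r above 0.01. At 24 h of NICD1 it was at 114, 215 and 205 TPM against 61.1, 56.7 and 150 TPM, higher in 3 of 3 embryos.

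HES5.2 (ENSGALT00000042752.3) was the least abundant of the 3 in all 15 control otocysts and had the largest mean r with NICD1 among them, 1.68. With NICD1 at 6 h it was at 98.1, 36.2 and 45.7 TPM against 16.7, 18.9 and 28.4 TPM on the left, and the sides did not overlap. At 24 h of NICD1 it was at 35.1, 130 and 63.5 TPM against 9.94, 17.2 and 22.3 TPM, again without overlap. In DMSO at 6 h it was at 12.9, 15.2 and 8.54 TPM against 0.220, 0 and 0.0968 TPM with LY411575. At 24 h it was at 10.2, 10.2 and 3.91 TPM in DMSO against 0.452, 1.19 and 0.368 TPM. It was the only Notch list member without overlap between the sides in all 4 sets that chose the members. Each of the 3 HES5 transcripts had fractional counts, which arise when kallisto divides a read between transcripts, so that reads of near-identical copies may not be separated.

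HEY1 (ENSGALT00000091726.1), a repressor related to the HES genes, had a score of 2.03 at rank 20, and its largest mean r, -2.64, was in the 6 h cultures. There it was at 253, 231 and 136 TPM in DMSO and at 26.5, 28.6 and 40.0 TPM with LY411575. At 24 h it was at 7.18, 11.7 and 14.5 TPM in DMSO and at 9.62, 6.40 and 9.76 TPM with LY411575, and the sides overlapped. With NICD1 the right otocysts overlapped the left at both times. Its mean r of 0.56 over the NICD1 embryos rested largely on embryo 19, at 134 TPM on the right and 28.0 TPM on the left, while r in the other 5 lay between -0.14 and 0.72.

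NRARP (ENSGALT00000043520.4), a small ankyrin repeat protein that acts back on the Notch intracellular domain, ranked 60 with a score drawn from the 24 h samples. With NICD1 at 24 h it was at 97.8, 37.8 and 15.9 TPM against 36.1, 12.6 and 9.85 TPM on the left, higher in 3 of 3 embryos. With LY411575 at 24 h it was at 9.94, 9.15 and 10.9 TPM against 24.8, 27.1 and 20.4 TPM in DMSO, without overlap. At 6 h its r had both signs in both experiments, from -0.93 to 0.52 with NICD1 and from -0.63 to 0.30 with LY411575.

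**Figure D2:**
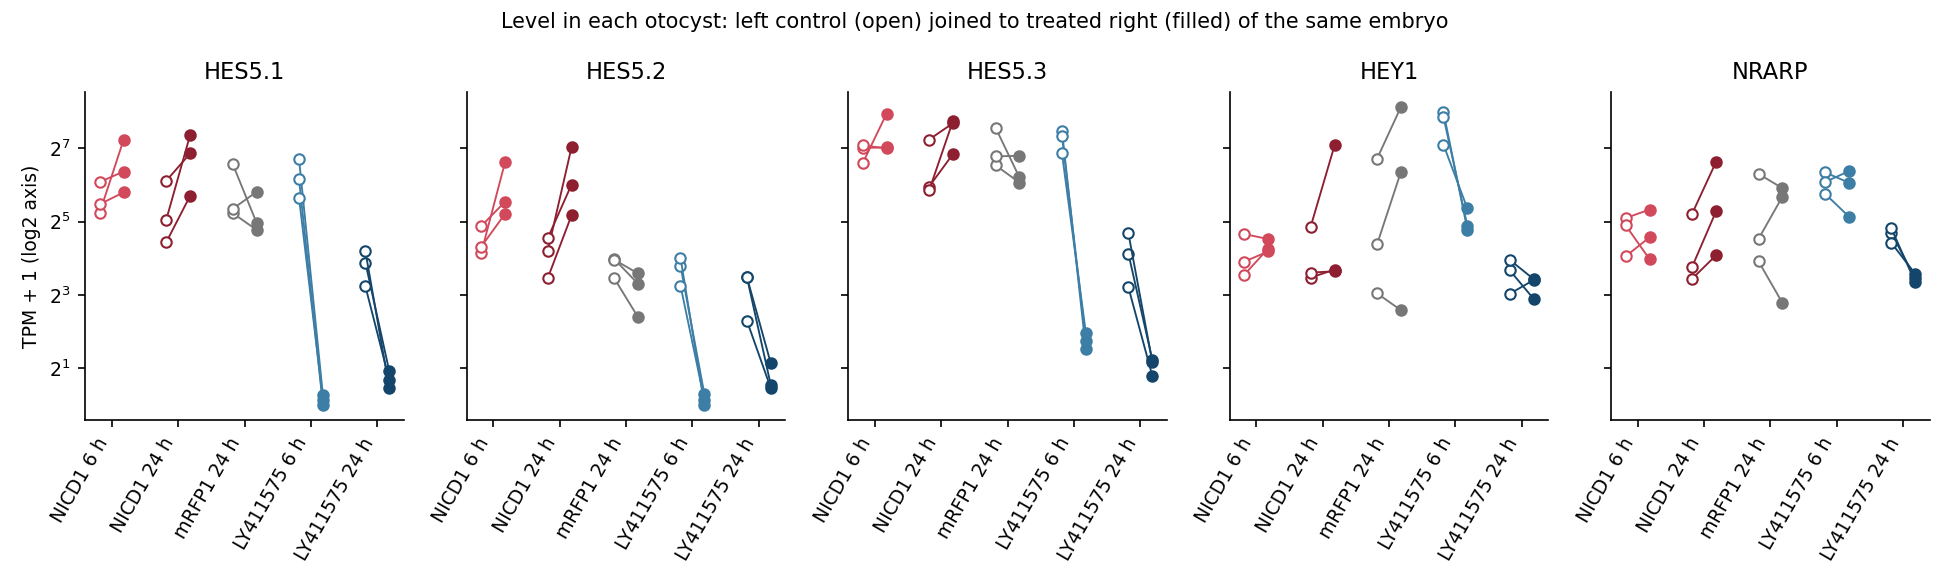
TPM + 1 on a log2 axis of the 5 members on the Notch pathway list in each of the 30 otocysts, with the left control (open) joined to the treated right otocyst (filled) of the same embryo. With LY411575 the 3 HES5 transcripts fall to below 3 TPM in all 6 embryos, while HEY1 is lower on the right in 3 of 3 embryos at 6 h and NRARP at 24 h.

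These 5 were the members among 13 genes on the Notch pathway list, all of which passed the level of 5 TPM. HES1, another repressor of the family, ranked 199, with a mean r of 0.15 over the NICD1 embryos and -0.61 over the LY411575 embryos, where it was lower in 6 of 6. NOTCH1, the receptor itself, ranked 206 (mean r 0.03 with NICD1 and -0.71 with LY411575). The transcript followed for NOTCH1 had 9865 bases and a mean r of -0.24 at 6 h and 0.30 at 24 h of NICD1. Whether it takes up reads of the NICD1 plasmid was not tested here. The paper, by its own test, reports NOTCH1 as increased in both NICD1 sets. With a divided reference it found the intracellular part increased, most likely from the construct, and the rest of the gene unchanged. HES4 was lower in 6 of 6 LY411575 embryos (mean r -1.20) but had a mean r of -0.11 with NICD1, which kept it out. LFNG, a glycosyltransferase that modifies Notch receptors, and NOTCH2 had negative means in both experiments. With LY411575, NOTCH2 was higher in 3 of 3 embryos at 6 h (mean r 0.23) and lower in 3 of 3 at 24 h (mean r -0.95). The ligand JAG2 failed the signs of both experiments, with a mean r of -0.45 with NICD1 and 0.09 with LY411575. The DNA-binding partner RBPJ failed the sign of the gain experiment (mean r -0.24) and had a mean r of 0.00 with LY411575. Both were higher in 3 of 3 embryos after 6 h of LY411575 and lower in 3 of 3 after 24 h. The ligand DLL1 failed the sign of the loss experiment, with r from 1.17 to 1.86 after 6 h and from -1.45 to -0.53 after 24 h of LY411575.

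The other 12 members with a symbol are not on the Notch list, and 9 of them had their largest mean r, by size, in the 24 h LY411575 embryos. For BZW2 and OTOP1 it was in the 6 h LY411575 embryos and for KBTBD8 in the 24 h NICD1 embryos. FABP7, a fatty acid-binding protein of radial glia, was at 737, 704 and 467 TPM in DMSO at 24 h and at 140, 294 and 193 TPM with LY411575. With NICD1 it was at 1184 TPM in embryo 21 at 24 h against 131 TPM on the left, and r in the other 5 NICD1 embryos lay between -0.55 and 0.63. At 6 h of NICD1 FABP7 was at 246, 198 and 176 TPM against 158, 150 and 131 TPM on the left, without overlap. At 24 h r was -0.55 and -0.06 in the other embryos, so the high mean at 24 h came from embryo 21. SLC1A3, a glutamate transporter, had r above 0 in 5 of 6 NICD1 embryos, at 9.40, 12.3 and 6.17 TPM against 6.68, 4.82 and 3.30 TPM at 6 h.

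HAS2, the enzyme that makes hyaluronan, had the direction of the rule in 11 of 12 embryos. With LY411575 it was at 11.6, 16.8 and 14.5 TPM against 34.7, 31.1 and 24.7 TPM in DMSO at 6 h. At 24 h it was at 2.28, 5.42 and 6.30 TPM against 10.3, 9.87 and 24.4 TPM, and the sides did not overlap at either time. With NICD1 its highest r was 0.80, in embryo 22. OTOP1, a proton channel needed in the mouse for the formation of otoconia, was at 3.83, 3.88 and 2.57 TPM with LY411575 at 6 h against 11.3, 8.32 and 7.01 TPM in DMSO. It belongs to the otic epithelium list, whose sum, given above, overlapped between LY411575 and DMSO at 6 h. The median log2 fold change over the 10 transcripts of that list was -0.48 there, against -0.00 over all transcripts tested. Within the sum SOX10 was at 343 to 435 TPM against 340 to 438 TPM in DMSO. DLX5 was at 62.9 to 83.5 TPM against 106 to 131 TPM, without overlap.

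ACTA2, smooth muscle actin and a gene of the mesenchyme list, was higher with NICD1 at 6 h, at 31.3, 35.8 and 94.5 TPM against 15.4, 13.5 and 18.1 TPM. At 24 h of NICD1 it was at 31.6, 25.5 and 23.0 TPM against 30.8, 46.0 and 25.9 TPM. With LY411575 it was at 3.79, 5.75 and 4.89 TPM against 9.02, 90.0 and 23.8 TPM at 24 h, while at 6 h r lay between -0.15 and 0.10. NOV, a secreted matricellular protein, was at 3.82, 4.58 and 6.83 TPM with LY411575 at 24 h against 5.52, 35.2 and 16.9 TPM, and its sides overlapped. Among the 6 DMSO otocysts both genes were highest in embryo 33.

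TAX1BP3, a small PDZ domain protein, was at 87.9, 86.0 and 65.4 TPM with LY411575 at 24 h against 256, 256 and 204 TPM in DMSO. Its mean r in NICD1 embryos came from values between -0.18 and 0.35. KCTD3, a BTB domain protein, was at 1.15, 2.40 and 0.446 TPM with LY411575 at 24 h against 8.41, 18.7 and 20.5 TPM in DMSO. With NICD1 its r had both signs at both times.

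The remaining named members were transcripts listed at or near 0 in some libraries and present in others. The BZW2 transcript, of a protein with a W2 domain, was at 5.38, 29.4 and 62.5 TPM in DMSO at 6 h and below 0.001 TPM with LY411575. It was also below 0.001 TPM in all 6 otocysts cultured for 24 h, DMSO included, so that r was 0 there. The HNRNPDL transcript, of an RNA-binding protein, was at 12.2, 9.84 and 18.7 TPM in DMSO at 24 h and listed at 0 in all 3 LY411575 otocysts. Its r at 6 h of LY411575 was -1.17, -3.75 and 1.66. FOXJ2, a forkhead transcription factor, had r from -3.01 to 2.73 with NICD1 and from -4.18 to 4.26 with LY411575. KBTBD8, an adaptor for a ubiquitin ligase, had r from -3.54 to 2.56 with LY411575. All 4 had fractional counts, and other transcripts of these genes were not analysed here.

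The 4 members with the largest scores among those known by identifier alone had the same on and off pattern. ENSGALT00000080932.2, with a mean r of 1.88 in NICD1 embryos, was at 0, 0.0243 and 8.68 TPM in the left otocysts and at 5.45, 8.02 and 21.1 TPM after 6 h of NICD1. In the mRFP1 embryos its r was -1.38, 3.87 and -1.37. ENSGALT00000080592.2 was at 17.5, 14.9 and 10.7 TPM in DMSO at 6 h and at 1.11, 3.85 and 1.13 TPM with LY411575, but r was between 0.24 and 2.22 at 24 h. ENSGALT00000059398.2 had an r of 4.51 in embryo 22 and of 0.61 or less in the other NICD1 embryos. ENSGALT00000067072.2 had r from -5.56 to 3.21 over the LY411575 embryos. Of these 4, none had the direction of the rule in more than 9 of 12 embryos.

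**Figure D3:**
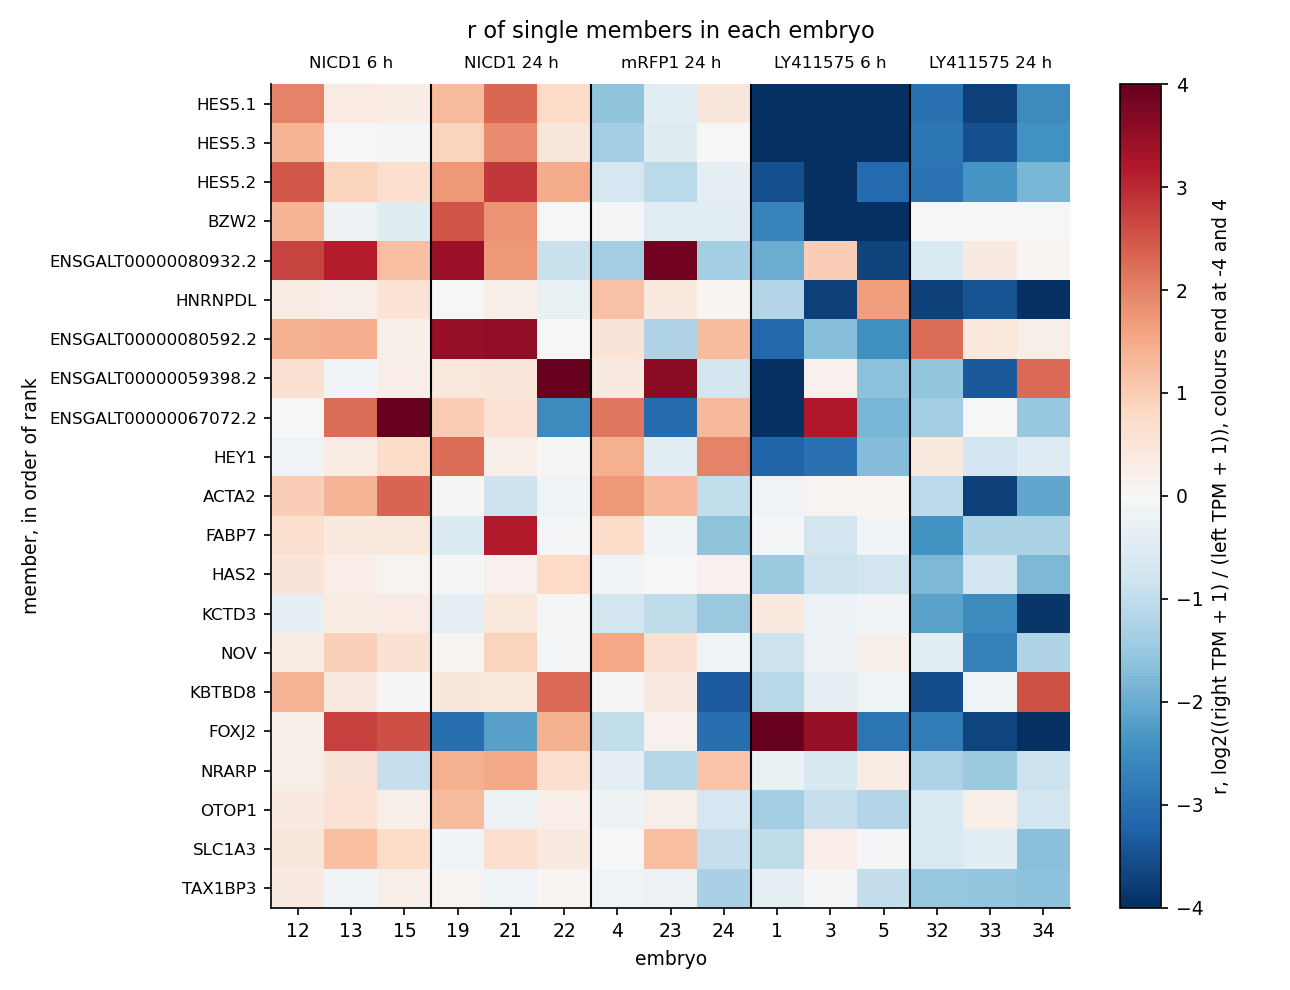
r (log2 scale, colours) of the 17 members with a symbol and of the 4 members with the largest scores without one, in each of the 15 embryos, with rows in order of rank. The 3 HES5 rows are blue in all 6 LY411575 embryos and red in nearly all 6 NICD1 embryos, while most other rows hold both colours within a set.

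Over all members, single embryos weighed heavily. The direction of the rule was seen in 12 of 12 embryos for 4 members, in 11 for 6 and in 10 for 30. The other 60 members had it in 6 to 9 embryos. In all 4 sets the mean r had this direction for 53 members, in 3 sets for 42 and in 2 sets for 5. In 13 members 1 embryo gave over 50% of the score, and the median share of the largest embryo was 33.9%. At least 1 of the 24 libraries was listed at 0 TPM for 40 members, against 3.68% of eligible transcripts. These values describe the choice and are no test of it.

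The 4 contrasts that chose the members called few of them, which is given as a description. In the edgeR fit of all 30 libraries, 99 members passed the filter on low counts. After 6 h of LY411575, 4 of them were called lower at an adjusted p below 0.05 (HES5.1, HES5.2, HES5.3 and BZW2), where 0.037% of all transcripts were. After 24 h of LY411575, 14 were called lower, where 1.85% of all transcripts were. Those with a symbol were HES5.1, HES5.2, HES5.3, HNRNPDL, ACTA2, HAS2, KCTD3 and TAX1BP3, and the other 6 had none. No member was called higher with NICD1 at 6 h or at 24 h, where 0% of all 21637 transcripts were. At an unadjusted p below 0.05 in either direction there were 8 members and 855 transcripts at 6 h, and 20 members and 577 transcripts at 24 h. The treated and control otocysts of these sets decided the choice, so nothing is read from these counts.

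The mRFP1 embryos took no part in the choice, and compare a right otocyst electroporated without NICD1 with its untransfected left one. There, 0 of the 99 members tested and 0% of all transcripts were called by edgeR. At an unadjusted p below 0.05 there were 6 members, or 6.06%, and 9.44% of all transcripts. DESeq2 called 349 of 21637 transcripts higher and 194 lower in this comparison, with 0 and 2 of the 99 members, and limma-voom called 0. The mean r over the 3 embryos was above 0 for 37 members and for 26.2% of eligible transcripts. Among the 2402 other transcripts with both signs of the rule it was above 0 for 42.7%, with a median of -0.04. The median of this mean was -0.27 over the members and -0.19 over the eligible transcripts, and 44 members lay above 0 once each embryo was centred on the median of the eligible transcripts. The members were more scattered. The median size of the mean r, whatever its sign, was 0.43 over the members and 0.24 over the eligible transcripts, 2 members had a mean r above 1 and 14 below -1, and the shares among eligible transcripts were 0.366% and 1.74%.

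The values of single members in the control electroporation are those of the edgeR fit, which called none of them. HES5.1 was at 30.4, 26.4 and 55.1 TPM on the right and at 94.6, 36.6 and 39.7 TPM on the left, with a log2 fold change of -0.34 ± 0.48 (SE, edgeR adjusted p = 0.905). HES5.2 was at 8.88, 4.26 and 11.0 TPM against 14.8, 10.0 and 14.6 TPM, lower on the right in 3 of 3 embryos (log2 fold change -0.57 ± 0.44, edgeR adjusted p = 0.779). HES5.3 had r of -1.36, -0.47 and 0.02. The direction of the HES5 means was thus opposite to that with NICD1, and a difference between the 2 plasmids was not tested. A fall on the right was common in these embryos. Of eligible transcripts 30.2% were lower in 3 of 3, as were 23 of the 100 members.

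HEY1 was higher on the right in 2 of 3 mRFP1 embryos, at 279, 4.99 and 81.1 TPM against 104, 7.24 and 19.8 TPM. Its log2 fold change was 1.32 ± 0.58 (SE, edgeR adjusted p = 0.508). Its mean r was 0.98, against 0.56 over the NICD1 embryos of both times and 0.82 over those at 24 h. NOV had a log2 fold change of 0.89 ± 0.41 (edgeR adjusted p = 0.524) and r of 1.55, 0.62 and -0.18. ACTA2 was also higher on the right in 2 of 3 embryos, at 229, 35.1 and 22.4 TPM against 67.6, 13.7 and 44.8 TPM. Its log2 fold change was 0.94 ± 0.53 (edgeR adjusted p = 0.633). HNRNPDL was higher in 3 of 3 embryos, with r of 1.16, 0.39 and 0.08. KCTD3 was lower in 3 of 3 embryos, at 10.4, 2.87 and 1.87 TPM against 17.7, 6.83 and 7.02 TPM (log2 fold change -1.09 ± 0.37, edgeR adjusted p = 0.418). KCTD3 was called by DESeq2, at an adjusted p of 0.0482. The member with the smallest p, of rank 15 and without a symbol, was chosen for mention after its values were seen. It had a mean r of 2.05 with NICD1 and a log2 fold change of -1.25 ± 0.28 with mRFP1 (edgeR adjusted p = 0.403). Its mean r with LY411575 was only -0.12, with r of 0.30, 0.15 and 0.22 at 6 h and of -0.17, -0.40 and -0.81 at 24 h. This transcript also had fractional counts.

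**Figure D4:**
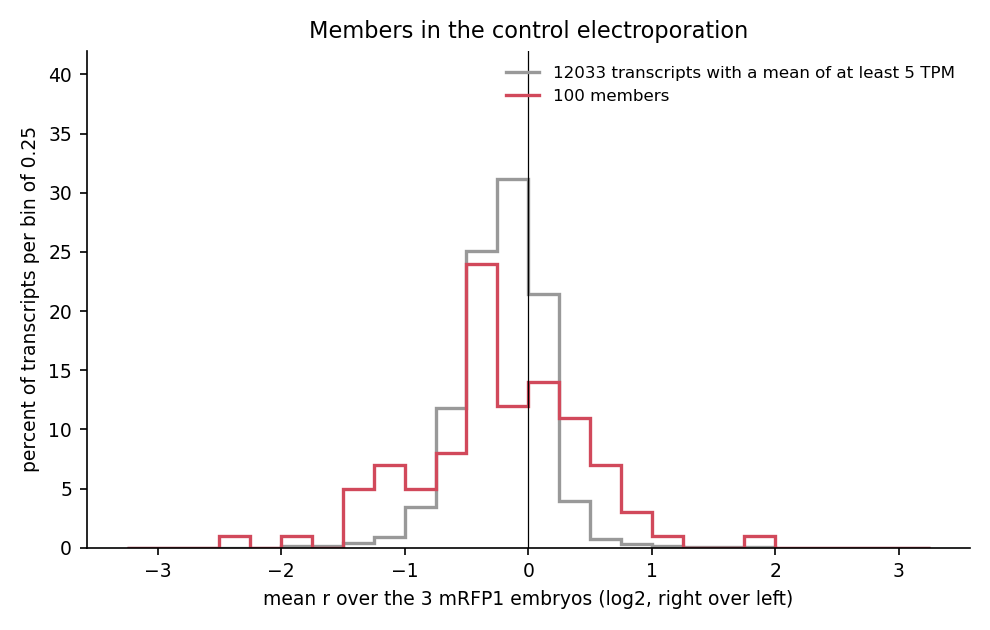
Share of transcripts (percent per bin of 0.25) by their mean r over the 3 mRFP1 embryos (log2), for the 100 members (red) and the 12033 eligible transcripts (grey). The members are spread more widely on both sides, with a median of -0.27 against -0.19.

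Leaving out each of the 12 embryos in turn and choosing 100 transcripts again from the other 11 gave a look at embryos that had not chosen. In the embryo left out, between 54 and 67 of the 100 had the direction of the rule, with a median of 59. Among all eligible transcripts the share with that direction ran from 30.8% to 61.8% by embryo. The 100 exceeded that share in 12 of 12 embryos, by 0.7 to 25.2 percentage points. The 12 choices shared most of their embryos and members, so these counts are not independent and are a description only. The share of eligible transcripts is also not that of transcripts with both signs. In mRFP1 embryos the mean r was above 0 for 42.7% of the 2402 other transcripts with both signs, against 26.2% of eligible ones. In the gain experiment the counts were 60 against 37.4% in embryo 12, 67 against 61.8% in embryo 13 and 56 against 43.6% in embryo 15. At 24 h they were 56 against 30.8% in embryo 19, 67 against 51.3% in embryo 21 and 54 against 48.2% in embryo 22. In the 6 h inhibitor embryos 58 to 65 had it, against 42.9% to 52.1%. The 24 h inhibitor embryos gave the smallest excess, with 63 against 61.3%, 54 against 52.4% and 57 against 56.3%. HES5.1, HES5.2 and HES5.3 were among the 100 in all 12 choices, and between 77 and 87 of the members were chosen again. These 3 HES5 transcripts were lower in all 6 inhibitor embryos and are part of the counts above. Their part in the small excess in the 24 h inhibitor embryos was not tested. The share to be exceeded also varied with the embryo, as the eligible transcripts had a median r of -0.19 in embryo 19 and -0.15 in embryo 12. In mRFP1 embryos 4, 23 and 24, r was above 0 for 38, 50 and 32 of the 100 members. The eligible shares there were 32.9%, 45.4% and 29.4%. An excess thus also arose without NICD1, and its cause was not tested.

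**Figure D5:**
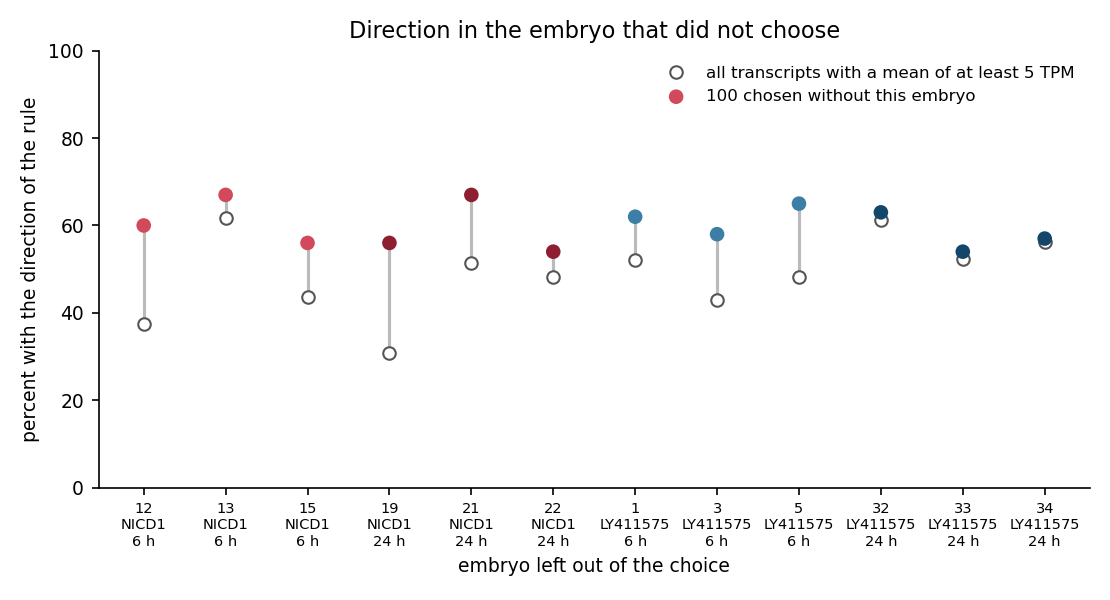
For each of the 12 embryos, the percent of the 100 transcripts chosen without it that had the direction of the rule in it (filled) and the same percent over all eligible transcripts (open). The filled points lie between 54 and 67 and above the open ones in 12 of 12 embryos, by the least in the 24 h LY411575 embryos. The 3 HES5 transcripts are among the 100 each time. The 12 choices overlap, so the points are not independent.

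The control otocysts were also compared over time. The DMSO values and those of the NICD1 set's left otocysts enter r, so that the counts of members below are not independent of the choice and are given as a description. Between DMSO cultures of 24 h and 6 h, 18 of 99 members were lower, where 9.6% of all 20710 transcripts tested were, and 4 were higher, where 11.1% were (edgeR, adjusted p below 0.05). Without embryo 5, 2 of 99 were higher, where 1591 of 21345 transcripts were. Culture length, and the shift in otic and neurogenesis sums given above, move with this comparison, and their part was not tested. HES5.1 was at 49.4 to 104 TPM at 6 h and at 8.39 to 17.2 TPM at 24 h (log2 fold change -2.29 ± 0.50, SE). HES5.3 fell as well (log2 fold change -2.98 ± 0.47, SE). HES5.2 was at 8.54 to 15.2 TPM at 6 h and at 3.91 to 10.2 TPM at 24 h, and it was not called (log2 fold change -0.37 ± 0.41, SE). The order of the 3 HES5 transcripts, HES5.3 over HES5.1 over HES5.2 in the DMSO otocysts at 6 h, was thus compressed at 24 h, where their ranges overlapped.

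HEY1 fell from 136 to 253 TPM at 6 h to 7.18 to 14.5 TPM at 24 h (log2 fold change -4.06 ± 0.84, SE). NRARP was at 53.3 to 80.2 TPM and at 20.4 to 27.1 TPM, without overlap, and was not called (log2 fold change -1.31 ± 0.60, SE). OTOP1 fell by 1.17 ± 0.37 on the log2 scale, from 7.01 to 11.3 TPM to 2.88 to 3.82 TPM, and was not called once any of 5 single embryos was left out. BZW2 was called lower, and its fold change is not given since the transcript was listed at 0 in all 3 DMSO otocysts at 24 h. FABP7 rose by 1.89 ± 0.41 on the log2 scale. ACTA2 was called higher, by 2.43 ± 0.73 on the log2 scale, and was not called once any of 4 single embryos was left out. Without embryo 33, the one that moved it most, its log2 fold change was 1.03.

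Of the 13 genes on the Notch list, 7 were lower and 1 was higher in DMSO at 24 h than at 6 h. The lower ones were HES1, HES4, HES5.1, HES5.3, HEY1, NOTCH1 and NOTCH2, and the higher one was RBPJ. The median log2 fold change was -1.31 over the list and -0.03 over all transcripts tested. In ovo, untransfected otocysts of embryonic day 3 were set against those of embryonic day 2.5. There 0 members and 0% of all transcripts were called by edgeR, and limma-voom called 0. At an unadjusted p below 0.05 there were 6 members, or 6.06%, and 5.48% of all transcripts. DESeq2 called 68 of 20710 transcripts higher and 35 lower, with 2 and 0 of the 99 members. The log2 fold changes of HES5.1, HES5.2 and HES5.3 were 0.03, -0.46 and -0.10.

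Apart from their ratios, the members differed from the eligible transcripts in level and in how reads were assigned. Their median length was 1820 bases against 2141, and their median level was 11.6 TPM against 25.2 TPM. The level ran from 5.01 to 1935 TPM. In 86 of the 100 members the estimated count was not a whole number, within a tolerance of 1e-06, in at least 1 library, which shows that reads were shared with another transcript, against 62.5% of eligible transcripts. In the left otocysts, the median SD between embryos of a set was 0.67 on the log2(TPM + 1) scale over the members and 0.28 over the eligible transcripts. The left values enter r, so this scatter is not independent of the choice.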

How the data were processed

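The 30 otocyst libraries were made with the SMART-Seq v4 kit, which does not mark strand. Per the submitters' processing notes, the authors used bcl2fastq, kallisto (version not given) and GRCg6a. The deposited tables list 28756 transcripts with estimated counts, which kallisto shares out between compatible transcripts, and with TPM, which the authors' software scaled for effective length and library size. The members and lists were chosen with earlier results of these data known. Symbols came from the identifier and symbol pairs in the study's supplementary material, for 809 of the listed transcripts, and 1 identifier with 2 symbols was left unnamed. That material lists transcripts which the study found changed, partly in these libraries, so having a symbol is not independent evidence. The fold changes and p-values it also holds were not used. Sequences and promoters were not analysed here.

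r used a pseudocount of 1 TPM. For tests, estimated counts were rounded, filtered by filterByExpr (minimum count 10) and scaled by TMM. The edgeR 4.0.16 quasi-likelihood test (R 4.3.3) was fitted to 30 libraries, with 1 term per embryo and 1 treatment term per set, and to the 15 left otocysts by group. Each fit had 10 residual degrees of freedom. P-values were two-sided and adjusted by Benjamini-Hochberg over all 21637 or 20710 transcripts tested. DESeq2 1.42.0 and limma-voom 3.58.1 were alternatives. Right and left otocysts are paired because they come from the same embryo. Their deviations from group means correlated in all 15 pairs, from 0.08 to 0.68, and above 0.1 in 13. No libraries of a group agreed within sampling noise (lowest chi-square, divided by its degrees of freedom, 14.8), so each was a separate sample. Tests were tried on simulated data with less spread than these libraries and no differences between embryos. That trial therefore does not show how the tests do on these libraries. Named were the members on the Notch list, the members with a symbol, 4 members by identifier and the ranks next to the threshold.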

Additional observations from a re-analysis of the deposited data

Results flagged for a closer look

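HES5.2 had a mean r of 2.01 in the NICD1 otocysts at 24 h, where it was higher in 3 of 3 embryos, and of -0.71 in the mRFP1 otocysts at 24 h, where it was lower in 3 of 3. The difference itself was not tested, since the NICD1 embryos chose the transcript. Of eligible transcripts, 30.2% were lower in 3 of 3 mRFP1 embryos.

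Single embryos stood far from the others of their experiment in 2 of the 34 sets of 6 ratios examined for the named members, where chance flags about 1 in 20. HEY1 had an r of 2.22 in embryo 19, and the other 5 NICD1 embryos lay between -0.14 and 0.72. FABP7 had an r of 3.17 in embryo 21, and the other 5 lay between -0.55 and 0.63.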

How the results depend on the processing

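Of the members, 47 remained with a minimum of 1 TPM and 59 with a minimum of 10 TPM. With alternatives added after seeing the data, 64 remained without embryos 32 and 34, 42 with the 6 h embryos alone and 52 with the 24 h embryos alone. Between 68 and 89 remained with a pseudocount of 0.1 or 5 TPM, the median over embryos, or TMM-scaled CPM, and between 77 and 87 without single embryos. HES5.1, HES5.2 and HES5.3 were chosen under all these settings. In the control electroporation DESeq2 called 349 of 21637 transcripts higher and 194 lower, with 0 and 2 of the 99 members. There edgeR called 0 of each, and the fit without the embryo pairing (no replicate block) also called 0 of each. In ovo over time, DESeq2 called 68 of 20710 transcripts higher and 35 lower, with 2 and 0 of the 99 members. The 9 untransfected otocysts alone gave 1 transcript, and fits without single embryos gave 0 to 2. The median score of 1.36 became 1.92 and 0.90 with pseudocounts of 0.1 and 5 TPM, and 1.73 and 1.07 with minimums of 1 and 10 TPM. It was 1.64 with the 6 h embryos alone and 1.82 with the 24 h embryos alone. Under the other settings it lay between 1.30 and 1.48. The members' median r with mRFP1 lay between -0.31 and -0.07 under all its settings. Between DMSO cultures, 8 of 98 members were higher with the 6 DMSO otocysts alone, where 2224 of 18559 transcripts were. Without single embryos 2 to 4 of 99 members and 1586 to 1996 of all transcripts were higher. ACTA2 lost its call with limma-voom, with the 6 DMSO otocysts alone and without any of 4 single embryos, OTOP1 with limma-voom and without any of 5, and BZW2 with limma-voom. The causes were not tested. Groups of 3 embryos, single transcripts and unstranded, shared reads limit these values.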
